A study of Mus musculus with 20 samples.

Results

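H3K27me3, the trimethylation of histone H3 at lysine 27 that marks chromatin held by Polycomb complexes, was mapped by chromatin immunoprecipitation with sequencing (ChIP-seq) in Comma-Dβ cells, a line of mammary epithelium that originates from the gland of pregnant mice. The regions described are all peaks of the deposited H3K27me3 list that lie on autosomes, 97965 of the 114660 peaks in that list and of the 194274 peaks and sites in the 4 lists of the study. The H3K27me3 group had 4 samples precipitated with an antibody to H3K27me3 and the input group had 4 samples of chromatin without antibody. All 20 samples of the study, which also used antibodies to H3K27ac, H3K4me3 and the E protein HEB, came from Comma-Dβ cells at passage 28 grown in DMEM/F12 with serum, HEPES, insulin and EGF, a growth factor of epithelia. They represent 1 line at 1 passage. The labels call the 4 samples of a group biological replicates. The list gives 1 position, 1 fold enrichment and 1 −log10 q-value per peak for the group as a whole, so no value below has a replicate error and no difference was tested across samples. Read depth per sample is unknown, and intervals on shares of genes cover counting error only.

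Polycomb repressive complex 2 (PRC2), with the methyltransferase Ezh2 and its partners Eed and Suz12, writes H3K27me3, and complexes of the PRC1 type read it through Cbx proteins and compact the chromatin. In differentiated mammalian cells the mark is best known over the regulators of other lineages, among them Hox and other homeobox genes, where it spreads from CpG-rich gene starts. H3K27ac, which occupies the same lysine at active enhancers and promoters, excludes H3K27me3 from the same histone tail.

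Peaks on autosomes covered 337.96 Mb, 14.07% of the 2402.6 Mb between the first and last peak of the 19 chromosomes. H3K27ac covered 4.918% and H3K4me3 1.318% of the same span. The start sequences below show the kinds of gene that were covered and spared, with each CG dinucleotide in capitals. They run from 250 bases before to 50 after the gene start on the gene's own strand, are taken from RefSeq (assembly GRCm38.p6, the assembly behind mm10), and were available for 16457 of 20665 autosomal protein-coding genes. Searching for CG, which reads the same on both strands, found at least 1 in 95.6% of all 20085 such starts and 20 or more in 37.1%.
Barhl2, chr5:106458117-106458416, minus strand, homeobox factor in the widest H3K27me3 domain: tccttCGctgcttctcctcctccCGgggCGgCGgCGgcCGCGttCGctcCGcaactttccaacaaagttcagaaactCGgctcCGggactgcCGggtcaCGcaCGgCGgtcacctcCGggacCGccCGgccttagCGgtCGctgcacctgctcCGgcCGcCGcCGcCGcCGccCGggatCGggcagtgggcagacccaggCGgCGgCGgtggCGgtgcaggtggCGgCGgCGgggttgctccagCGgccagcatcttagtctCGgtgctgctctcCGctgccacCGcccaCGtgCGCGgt
Hoxd13, chr2:74667975-74668274, plus strand, covered, in the HoxD cluster: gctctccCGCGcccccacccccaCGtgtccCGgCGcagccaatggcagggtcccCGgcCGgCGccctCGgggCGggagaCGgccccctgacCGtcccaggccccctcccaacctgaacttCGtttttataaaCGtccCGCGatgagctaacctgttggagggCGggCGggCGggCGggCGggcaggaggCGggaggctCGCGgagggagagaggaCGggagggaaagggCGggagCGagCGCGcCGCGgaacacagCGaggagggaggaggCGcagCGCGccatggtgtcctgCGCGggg
Wnt1, chr15:98789607-98789906, plus strand, covered, with H3K4me3 at the start: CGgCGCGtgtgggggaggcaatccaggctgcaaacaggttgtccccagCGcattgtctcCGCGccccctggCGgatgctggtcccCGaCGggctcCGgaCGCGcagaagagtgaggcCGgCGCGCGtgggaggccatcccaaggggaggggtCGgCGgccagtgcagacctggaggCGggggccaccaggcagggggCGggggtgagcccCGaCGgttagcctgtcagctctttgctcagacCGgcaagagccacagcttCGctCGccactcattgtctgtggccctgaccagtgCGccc
Lalba, chr15:98482634-98482933, minus strand, milk protein α-lactalbumin, covered: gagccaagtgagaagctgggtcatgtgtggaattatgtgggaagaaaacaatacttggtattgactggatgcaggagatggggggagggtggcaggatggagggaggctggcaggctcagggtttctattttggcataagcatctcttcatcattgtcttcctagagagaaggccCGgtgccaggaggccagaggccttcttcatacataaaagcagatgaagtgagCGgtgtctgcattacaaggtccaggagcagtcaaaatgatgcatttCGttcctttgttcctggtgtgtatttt
Olfr311, chr11:58840866-58841165, plus strand, odorant receptor, covered: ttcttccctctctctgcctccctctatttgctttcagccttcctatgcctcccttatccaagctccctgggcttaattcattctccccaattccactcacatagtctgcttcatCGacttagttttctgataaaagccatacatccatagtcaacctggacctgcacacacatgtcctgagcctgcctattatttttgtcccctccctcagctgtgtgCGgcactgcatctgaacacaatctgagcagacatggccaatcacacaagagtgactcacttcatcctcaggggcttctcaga
Olfr1012, chr2:85760325-85760624, minus strand, odorant receptor, spared: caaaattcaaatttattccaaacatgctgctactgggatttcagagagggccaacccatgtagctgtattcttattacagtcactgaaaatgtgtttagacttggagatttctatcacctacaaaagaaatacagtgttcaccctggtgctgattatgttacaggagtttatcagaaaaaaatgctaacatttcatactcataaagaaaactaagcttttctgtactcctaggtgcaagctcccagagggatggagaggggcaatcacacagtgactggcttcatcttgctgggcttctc
Gapdh, chr6:125165724-125166023, minus strand, glycolytic enzyme, spared: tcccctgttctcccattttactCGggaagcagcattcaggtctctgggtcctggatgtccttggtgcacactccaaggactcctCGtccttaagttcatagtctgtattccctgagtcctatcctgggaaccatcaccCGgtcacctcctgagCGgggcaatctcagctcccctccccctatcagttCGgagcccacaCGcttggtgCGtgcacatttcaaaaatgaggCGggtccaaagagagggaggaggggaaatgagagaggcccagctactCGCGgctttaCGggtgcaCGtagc
Barhl2 held 42 CG and Hoxd13 37, Wnt1 held 26, and Gapdh held 12. Lalba held 3, Olfr311 2 and Olfr1012 0. H3K27me3 lay over the first 5 of these starts and over neither Olfr1012 nor Gapdh, so covered starts were found at both ends of the range of CG content.

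Most peaks were short and weak, and a small number of wide ones held much of the covered sequence. The median width was 1349 bp (quartiles 609 and 3442 bp) and the median deposited fold enrichment was 1.742 (quartiles 1.644 and 1.893, highest 5.771). Peaks under 1 kb were 40.46% of all peaks and 6.27% of covered base pairs. The 1171 peaks of 30 kb or more were 1.195% of peaks and held 17.26% of covered base pairs. The median fold was higher in wider peaks, from 1.657 under 1 kb to 2.15 at 10 to 30 kb and 2.51 at 30 kb or more, and the Pearson correlation of log width with log fold was 0.62 over the 97965 peaks. A −log10 q of 5 or more was reached by 1.34% of peaks under 1 kb and by 93.77% of those of 30 kb or more. Over all widths 10489 peaks (10.71%) reached it, and these held 42.45% of covered base pairs.

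**Figure D1:**
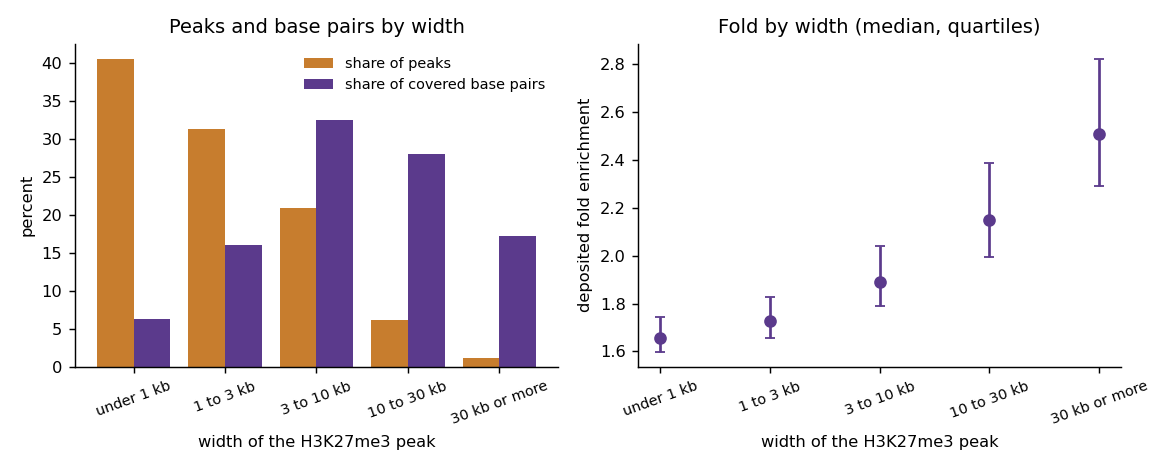
H3K27me3 peaks by width class. The left panel gives each class's percent of peaks and percent of covered base pairs, and the right panel the median deposited fold enrichment with its quartiles; the class of 30 kb or more has 1.195% of peaks, 17.26% of covered base pairs and the highest median fold, 2.51.

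The 10 widest single peaks measured between 165.5 and 216.6 kb. The widest, 216.6 kb on chromosome 6 (16705835 to 16922420), lay at Tfec, a transcription factor of the MiT family. Sox1, a factor of neural progenitors, lay inside a 211.7 kb peak (chromosome 8, 12358195 to 12569926, fold 3.008). The gene of Rbfox3, the neuronal splicing factor known as NeuN, was spanned by peaks of 188.6 and 182.5 kb. A peak of 204.5 kb covered the homeobox gene Lmx1a with Rxrg, a retinoid X receptor gene. One peak of 181.6 kb (chromosome 15, 102891508 to 103073067, fold 4.262) held all 9 genes from Hoxc13 to Hoxc4. The other widest peaks lay at Rnf220 (206.4 kb), at Wdfy4 and Lrrc18 (174.8 kb), at Nfasc (165.5 kb) and over no protein-coding gene (166 kb, chromosome 11).

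The peaks with the highest fold were narrower than the widest ones. The peak with the highest fold, 5.771, was 6.601 kb wide over Comp, a cartilage matrix protein gene with 54.53% of its body covered, and 11.77% of it also lay in H3K27ac and 17.94% in H3K4me3. Cracd followed at 5.565, the galanin receptor gene Galr2 at 5.37, a peak of 0.469 kb over no protein-coding gene at 5.352 and the zinc finger repressor gene Scrt1 at 5.341. A peak at E030030I06Rik and Raet1e had 5.249, the motor neuron homeobox gene Mnx1 5.231 and the helix-loop-helix gene Hes2 5.124. Mnx1 lay in a peak of 37.51 kb and Scrt1 in one of 17.92 kb, and both genes were covered over their whole length. Cdx2, a homeobox regulator of gut and trophoblast, lay in a 34.29 kb peak with a fold of 4.784.

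Neighbouring peaks were separated by at least 861 bp, with a median gap of 2717 bp. Joined across gaps of up to 3 kb, the peaks formed 46231 domains with a median width of 2.774 kb. Counted from the widest down, 50% of the base pairs in domains lay in domains of 29.84 kb or more, and the 476 domains of 100 kb or more held 17.98%. These domain widths depended on the join: the 29.84 kb became 8.537 kb with peaks left unjoined and 112.2 kb with gaps of up to 10 kb joined. The widest domain, 510 kb on chromosome 5 (106023084 to 106533086, 96.47% inside peaks), held 1 protein-coding gene, Barhl2, a homeobox gene of retinal and spinal neurons, between the zinc finger genes Zfp326 and Zfp644. The next was 446.1 kb with the adrenergic receptor gene Adra2c, the homeobox gene Hmx1 and the carboxypeptidase gene Cpz. A domain of 443.2 kb around the forkhead gene Foxb1 and one of 442.2 kb over Rbfox3 followed. The fifth, 433.9 kb, held Zdbf2, an imprinted gene, with Gpr1 and Adam23. A domain of 360.6 kb held Pax5, a paired-box factor of B cells.

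The 2 marks on lysine 27 rarely shared sequence. H3K27ac peaks overlapped 0.5129% of covered base pairs (1.733 Mb), beside 4.918% of the whole autosomal span. H3K4me3 peaks overlapped 0.7051% (2.383 Mb), beside 1.318% of the span, which is a smaller difference. The edges of joined domains of 10 kb or more lay a median of 40.54 kb from the nearest H3K27ac peak (quartiles 14.49 and 99.68 kb, 19586 edges). Positions outside peaks, taken every 10 kb, lay a median of 21.21 kb away (quartiles 4.756 and 99.96 kb, 206405 positions). Of the domain edges 19.34% lay within 10 kb of H3K27ac, and of the positions outside peaks 36.49%. For domains of 100 kb or more that share was 26.26%. Both edges lay within 10 kb of H3K27ac in 687 of 9793 domains (7.015%).

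Coverage per gene had 2 ends. A gene is called covered here when peaks took up at least 50% of its body, and spared when no base pair of it lay in a peak. Of 20665 autosomal protein-coding genes, 3128 were covered (15.1%), of which 1028 lay inside peaks from end to end, and 13517 were spared (65.4%). Counting only the peaks that reached −log10 q of 5, 1805 genes were covered (8.73%). The median coverage over all genes was 0% and the mean 15.91%. Genes took up 40.96% of the span and held 38.74% of the covered base pairs, so peaks were about as frequent between genes (14.6% of sequence) as inside them (13.3%). Long non-coding RNA genes were covered in 2306 of 12408 cases (18.58%).

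Genes under 5 kb were covered more often than longer ones. Among 5 classes by length, genes under 5 kb were covered in 21.71% of 4569 cases and genes of 200 kb or more in 11.43% of 945. A peak within 1 kb of the start was present at 28.98% of the former and 46.96% of the latter, and at 25.03%, 22.92% and 28.07% in the 3 classes between, in order of length. Over all 16457 genes with a start in the table, 4428 had such a peak at any of their starts (26.9%). Of 2433 covered genes with a start in the table, 2300 (94.53%) also had a peak at the start, and 2128 genes had one with under 50% of the body covered. In absolute length the most mark lay on Hpse2, a heparanase family gene, with 483.4 kb. The acid-sensing channel gene Asic2 had 470.6 kb, the calcium channel gene Cacna1e 460.6 kb, Egfem1 453.9 kb, Dlgap1, a gene of synaptic scaffolds, 448.7 kb, and Rims2, a gene of the synaptic active zone, 432.2 kb. Adamtsl1, Dpp6, Camta1 and Rbfox3 followed with 407.5 to 421.4 kb. Cacna1e was covered over 93.23% and Rims2 over 88.92% of the body, while Asic2, with 1088 kb the longest of these, reached 43.25%.

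The genes were sorted into 58 classes, 28 from lists and 30 by name. Among the 53 classes with 10 or more genes, 17 were covered at 2 or more times the 15.1% of all genes, and 14 of those 17 were also past this ratio with the stricter peaks, against 8.73%. Restricted to genes of 5 kb or more, where 13.3% of all genes were covered, 13 of the 17 passed. Forkhead factors, with 4 of 19 covered, fell short of the ratio. The Sox (5 of 9), bHLH (4 of 7) and taste and trace amine receptor classes (0 of 2) had fewer than 10 such genes left and were not counted. The classes share length, position and in part members, so the counts are a description of this list.

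**Figure D2:**
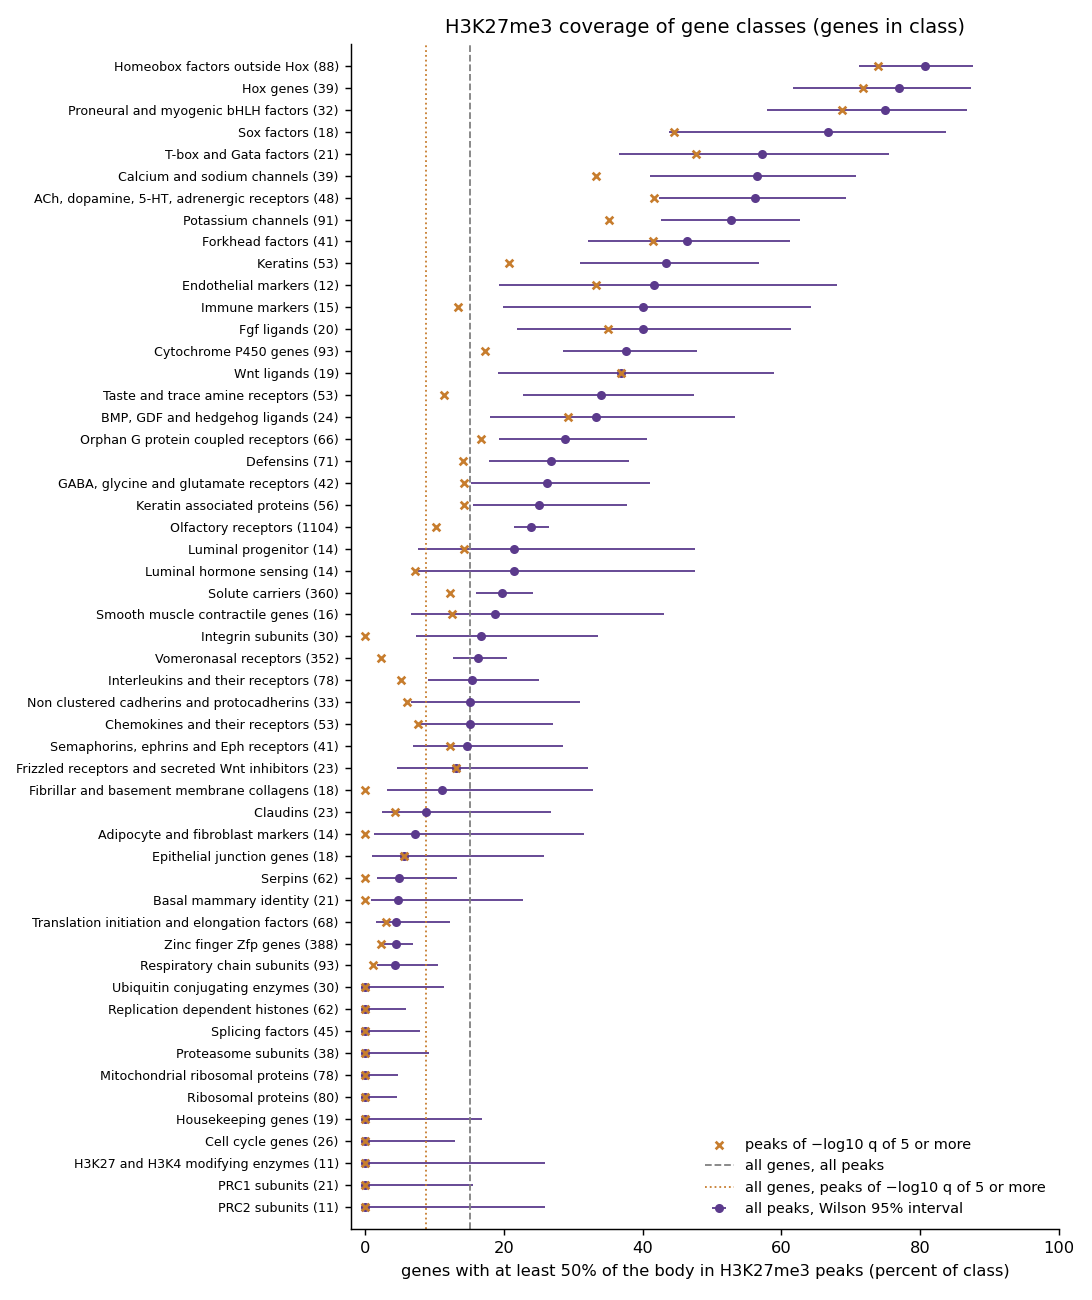
Percent of each class's genes with at least 50% of the body in H3K27me3 peaks, for classes of 10 or more genes, with Wilson 95% intervals that cover counting error only; crosses use peaks of −log10 q of 5 or more, and the dashed and dotted lines mark all genes under each rule. Homeobox factors stand highest at 80.68%, and 11 classes, from ubiquitin conjugating enzymes to PRC2 subunits, stand at 0.

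Homeobox and Hox genes had the highest shares of covered genes among the classes of 10 or more genes, and other factors of development were also covered often. Homeobox factors outside the Hox clusters were covered in 71 of 88 cases (80.68%, Wilson 95% interval 71.22 to 87.57) and had a peak at 57 of 60 starts. Hox genes were covered in 30 of 39 cases, proneural and myogenic bHLH factors in 24 of 32, Sox factors in 12 of 18, T-box and Gata factors in 12 of 21 and forkhead factors in 19 of 41. With the stricter peaks the shares were 73.86%, 71.79%, 68.75%, 44.44%, 47.62% and 41.46%. The neural factors Barhl2, Emx1 and Emx2, the gut factor Cdx2, the proneural factor Atoh1, the brachyury gene T and the endodermal factors Foxa2 and Sox17 were each covered over 100% of the body. Tbx5 and Gata4, regulators of the heart, were covered over 97.63% and 96.19%.

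Covered and spared factors of these classes differed in H3K27ac. Of the 239 genes of these 6 classes, 168 (70.29%) were covered, 33 were partly covered and 38 (15.9%) were spared. The median share of the body in H3K27ac peaks was 0% in the covered genes and 35.26% in the spared ones (quartiles 10.16 and 92.08). Over all genes it was 0% in the covered and 8.599% in the spared ones, of which 23.05% had no H3K27ac, against 13.16% of the 38. Irx1, Irx2 and Irx5, homeobox genes of the Iroquois group, lay wholly in H3K27ac, as did Sox4, Sox9, Sox15 and Foxj1. Gata3 and Tbx3, known regulators of the mammary gland, were spared with 92.33% and 58.33% of the body in H3K27ac, and Twist1, a mesenchymal bHLH factor, with 91.35%. The spared genes included 5 with no H3K27ac, the myogenic factors Myf5 and Myf6 with Ascl3, Tbx6 and Foxi1, so absence of one mark did not always come with the other.

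In 23 genes both marks took up at least 50% of the body. They were 1.616% of the 1423 genes with that much H3K27ac, beside 15.1% of all genes covered by H3K27me3. Sox2, a stem cell factor, had 75.88% in H3K27me3 and 100% in H3K27ac. For the basal keratin Krt5 the values were 83.95% and 67.45%, and for the tight junction gene Cldn7 95.11% and 56.34%. Dlx5, Pitx1, Foxc2, Foxf1, Hoxb6 and Hoxc5 were also among the 23, which are named here after their values were seen. Each list pools cells, and whether the marks lay in the same cells was not tested.

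The Hox clusters split by cluster and by position. HoxC (chromosome 15, 102921131 to 103036856) was covered over 100% and HoxD (chromosome 2, 74668225 to 74765142) over 97.91%, with 9 of 9 genes covered in each. HoxA was covered over 57.43% with 7 of 11 genes, and HoxB over 62.12% with 5 of 10. In HoxA, Hoxa7 to Hoxa13 at the posterior end lay wholly in a peak of 137.6 kb, and Hoxa2 and Hoxa5 were spared with 20.29% and 34.05% of the body in H3K27ac. In HoxB, Hoxb6 to Hoxb9 and Hoxb13 were covered over 100%, and Hoxb2, Hoxb3 and Hoxb4 were spared with 100%, 56.56% and 81.35% in H3K27ac.

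MicroRNA genes encode short RNAs that lower their target messages. Of 919 autosomal hairpins listed in RefSeq, 139 overlapped an H3K27me3 peak (15.1%, beside 14.07% of all sequence). Of the 919, 73 overlapped a peak of −log10 q of 5 or more, and such peaks covered 5.972% of all sequence. H3K27ac peaks overlapped 196 of the 919 hairpins, and 8 of the 139 in H3K27me3 were among these. The mature sequences below belong to hairpins chosen after their values were seen, with the seed (bases 2 to 8) in capitals, and are grouped by shared seed.
miR-9-5p: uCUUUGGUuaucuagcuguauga
miR-196a-5p: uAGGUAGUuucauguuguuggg
miR-196b-5p: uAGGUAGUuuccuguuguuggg
miR-10b-5p: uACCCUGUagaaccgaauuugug
miR-10a-5p: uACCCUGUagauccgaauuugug
miR-137-3p: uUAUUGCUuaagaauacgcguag
miR-200b-3p: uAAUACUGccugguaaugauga
miR-200c-3p: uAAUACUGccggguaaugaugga
miR-429-3p: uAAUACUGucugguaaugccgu
miR-205-5p: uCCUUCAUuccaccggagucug
All 3 hairpins of miR-9, a neural miRNA, lay in peaks on chromosomes 3, 13 and 7, and so did Mir137. The 3 hairpins of the miR-196 seed, which lie in the HoxB, HoxC and HoxA clusters, were all in peaks, and the 5 kb either side of each was covered over 100%. The pair with the miR-10 seed was split: Mir10b, in HoxD, lay in a peak with the sequence 5 kb either side covered over 100%, and Mir10a, in HoxB beside the spared Hoxb4, had 0% and an H3K27ac peak within 1 kb. The epithelial hairpins Mir200b, Mir200c and Mir429 lay in no H3K27me3 peak, although 41.01% and 45.36% of the 5 kb either side of Mir200b and Mir429 did. Mir205, a miRNA of basal epithelium, lay in H3K27ac with 0% H3K27me3 around it. Hairpins known from muscle and brain were not all covered: Mir208a and Mir208b lay in peaks, and Mir499, Mir133b, Mir206, Mir128-1, Mir132 and Mir218-1 lay in none.

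Signalling ligands carried the mark more often at the start than over the body. The same order held over all genes, of which 26.9% had a peak at a start and 15.1% were covered. Wnt ligands had a peak at 14 of 15 starts and were covered in 7 of 19 cases, and the BMP, GDF and hedgehog ligands had one at 14 of 15 starts with 8 of 24 covered. Fgf ligands were covered in 8 of 20 cases, with a peak at 12 of 15 starts. Wnt1 and Wnt3a, Wnt ligands of the neural tube, Fgf3, Fgf4 and Fgf8, and the hedgehog genes Shh and Ihh were covered over 100%. Wnt10b, Wnt4 and Bmp4 had peaks at their starts and 22.56%, 10.99% and 18.71% of the body covered. Wnt5a and Wnt7b, with 7.762% and 10.73% covered, had 38.09% and 69.82% in H3K27ac, and Wnt9a was spared. Frizzled receptors and secreted Wnt inhibitors were covered in 3 of 23 cases (13.04%), near the background, with a peak at 9 of 13 starts.

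Channel and receptor genes of excitable cells were covered in 3 of 4 classes at 2 or more times the 15.1% of all genes. Calcium and sodium channel genes were covered in 22 of 39 cases (56.41%), receptors for acetylcholine, dopamine, serotonin and adrenaline in 27 of 48 (56.25%), potassium channel genes in 48 of 91 (52.75%), and receptors for GABA, glycine and glutamate, the class that did not reach this ratio, in 11 of 42 (26.19%). The voltage-gated potassium channel genes Kcna1, Kcna2 and Kcna3 and the adrenergic receptor genes Adra2a, Adra2b and Adra2c were covered over 100%. Cacna1e and Cacng2, which encode a calcium channel pore and an auxiliary subunit, reached 93.23% and 96.02%. Kcnn4, a calcium-activated potassium channel gene, was spared with 71.12% of the body in H3K27ac, and the serotonin receptor genes Htr1a and Htr2b were spared with none.

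Genes of other tissues were covered in part, beside 15.1% of all genes, or 8.73% with the stricter peaks. Cytochrome P450 genes were covered in 35 of 93 cases (37.63%), among them Cyp17a1 of steroid synthesis and Cyp1a2 of liver, and in 17.2% with the stricter peaks. Among the 15 immune marker genes 6 were covered, with the T cell genes Cd3e and Cd4 and the macrophage gene Lyz2 at 100%, and 5 were spared. With the stricter peaks 2 of the 15 were covered (13.33%). A peak stood at 6 of 11 starts in this list, and a stricter peak at 1. Among the 12 endothelial marker genes 5 were covered, with Sox17 at 100%, Tie1 at 91.11% and Kdr at 84.65%, and Pecam1 and Eng were spared. With the stricter peaks 4 of the 12 were covered (33.33%). Among the 14 adipocyte and fibroblast marker genes 1 was covered (7.143%), and 0 with the stricter peaks. Of the keratin genes 23 of 53 were covered, and 11 (20.75%) with the stricter peaks. Krt1 and Krt2 of differentiated epidermis had 100% of the body in peaks. Krt8 and Krt18 of simple epithelium and the wound keratin Krt17 were spared, and Krt14 had 7.542% covered and 100% in H3K27ac.

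Markers of the labelled cell type were mixed. Of the 8 mammary epithelial markers, Trp63, Krt8, Krt18 and Krt19 were spared, Cdh1 had 2.38%, Krt14 7.542%, Epcam 14.24% and Krt5 83.95% covered (65.4% of all genes were spared and 15.1% covered), the last beside 67.45% of H3K27ac. Trp63, the regulator of basal epithelium, had 31.49% of its body in H3K27ac, and Krt19 had none. Markers of other cells were mixed too: the macrophage gene Cd68 and the collagen gene Col1a1 had no H3K27me3 and 100% and 95.49% H3K27ac, the fat cell genes Adipoq and Fabp4 had neither mark, and Plin1 had 48.97% H3K27me3. A mark over a gene is not a level of its RNA, which was not measured here.

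The mammary gene lists were covered at shares from 4.762% (basal identity) to 25% (milk proteins), beside the 15.1% of all genes. Of the basal identity list 1 of 21 genes was covered (4.762%), with 57.14% spared and a peak at 4 of 10 starts. Counting only the stricter peaks, 0 of the 21 were covered and 2 of the 10 starts had a peak. Of the hormone-sensing luminal list 3 of 14 genes were covered (21.43%), with 35.71% spared and a peak at 7 of 11 starts: Foxa1, the forkhead partner of the estrogen receptor, and the trefoil factor gene Tff3 over 100%, and the prolactin receptor gene Prlr over 84.52%. The estrogen receptor gene Esr1 had 0.4225% and the progesterone receptor gene Pgr 2.724%. With the stricter peaks 1 of the 14 was covered, and Tff3 had 0% and Prlr 21.36%. Of the luminal progenitor list, Sox10 (93.31%), the receptor gene Kit (55.8%) and Hey1 (53.86%) were covered, 3 of 14 genes and 2 with the stricter peaks, and Elf5, a regulator of alveolar cells, had 14.12%. Of the 8 milk protein genes, Lalba and the mucin-like gene Glycam1 were covered over 100%, and the casein gene Csn1s1 over 29.72%. Csn2 had 6.416%, and Csn3 and Wap, the whey acidic protein gene, were spared. Of the contractile genes of smooth muscle and myoepithelium 3 of 16 were covered, and 2 with the stricter peaks: Des over 100%, the oxytocin receptor gene Oxtr over 89.21% and Actg2 over 72.54%. Acta2, Tagln and Tpm1 of the same list were spared.

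In 11 classes with 421 genes no gene was covered, beside 15.1% of all genes. These were classes of basic cell function and of chromatin enzymes and Polycomb subunits. Replication-dependent histone genes were spared in 62 of 62 cases and housekeeping genes in 19 of 19. Ribosomal protein genes were spared in 98.75% of 80 cases, mitochondrial ribosomal ones in 97.44% of 78, splicing factors in 95.56% of 45, proteasome subunits in 94.74% of 38 and cell cycle genes in 88.46% of 26, against 65.4% of all genes. Other classes of this kind held a few covered genes. Of 93 respiratory chain genes 4 were covered: Cox8c and Ndufb4c over 100%, the muscle form Cox6a2 over 70.17% and Cox7b2 over 52.25%. Of 68 translation factor genes 3 were covered: Eef1a2, the elongation factor of muscle and neurons, over 100%, the oocyte form Eif4e1b over 86.3% and Eif4e3 over 62.93%. With the stricter peaks Cox8c, Cox6a2 and Cox7b2 had 0%. Cdkn1c, an imprinted inhibitor of cyclin-dependent kinases, was covered over 98.93%, and Cdkn2a and Cdkn2b were spared with 70.78% and 100% in H3K27ac.

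The Polycomb machinery itself was not covered. None of 11 PRC2 genes and none of 21 PRC1 genes passed 50%, and Ezh2, Eed and Suz12 were spared with H3K4me3 and H3K27ac at their starts. Peaks stood at 3 of 16 PRC1 starts, those of Bmi1, Cbx8 and Phc2, all with H3K4me3. Phc2 had 33.1% of its 98.2 kb body covered, inside a peak of 66.77 kb, with 30.98% in H3K27ac.

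Large receptor families did not behave as single classes. Olfactory receptor genes, which encode the odorant receptors of the nose, were covered in 263 of 1104 cases (23.82%) and in 10.14% with the stricter peaks, near the 8.73% of all genes. Vomeronasal receptor genes were covered in 57 of 352 cases (16.19%), 1.07 times the share of all genes, and in 2.273% with the stricter peaks, 0.2602 times it, so the side of the background depended on the peak threshold. Zinc finger genes named Zfp were covered in 17 of 388 cases (4.381%) and serpins in 3 of 62 (4.839%).

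The odorant receptor genes differed by cluster. Grouped where starts lay within 1 Mb of each other, 1069 of them fell into 29 clusters of 5 or more. In 14 clusters at least 50% of the receptor genes were covered, and in 3 none was. Of the 14 clusters under 20 genes 11 were in the former set, and of the 15 larger ones 3 were. The cluster from Olfr30 to Olfr225 on chromosome 11 had 23 of 24 genes covered, and that from Olfr1370 to Olfr1359 on chromosome 13 had 12 of 12. The largest, with 222 genes from Olfr987 to Olfr1274 on chromosome 2, had 1 (0.4505%). These counts use all peaks, and in part weak ones. In the 14 clusters the stricter peaks took up between 0% (Olfr164 to Olfr171) and 89.45% (Olfr1416 to Olfr12) of the cluster's sequence. With all peaks these 2 clusters had 20.53% and 89.71%. Covered genes per cluster were not counted with the stricter peaks. H3K27ac took up a median of 9.89% of the 1 Mb flanks in the 14 clusters and 1.141% in the 3 with none, and over the 29 clusters the Pearson correlation of coverage with H3K27ac in the flanks was 0.537, a description of clusters that share the 2 lists. The flanks of the largest cluster had 10.98%.

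Around gene starts the mark had a different shape in different genes. Positions were taken at fixed distances from the start, so those after it lie beyond the end of shorter genes. Of 160 genes of the 6 developmental factor classes with a start in the table, 71.88% had a peak at the start itself. The share was 80.62% at 1 kb after the start, 58.75% at 10 kb before it and 40% at 50 kb after it. Over all genes the share was 20.3% at the start, 18.58% at 10 kb before it and 14.06% at 10 kb after it. In 285 genes of ribosomal, proteasome, respiratory chain, splicing and other housekeeping classes it was 20.7% at 50 kb before the start and 0.3509% at the start. After the start it was 3.158% at 10 kb and 16.84% at 50 kb, the latter beyond the end of many of these genes.

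**Figure D3:**
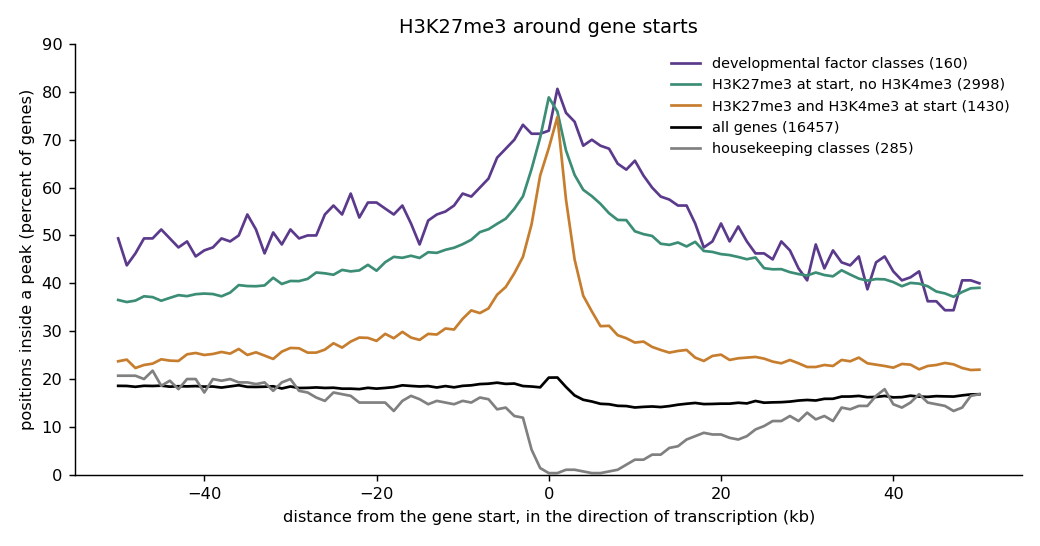
Percent of genes with a position inside an H3K27me3 peak, by distance from the gene start in kb (positive values lie inside or beyond the gene), every 1 kb. Developmental factors reach 80.62% at 1 kb, housekeeping genes fall to 0.3509% at the start, and covered starts with H3K4me3 form a narrower summit than those without it.

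Starts with H3K4me3 had the narrower coverage. Of 9760 starts with H3K4me3 14.65% had H3K27me3, and of 6697 without it 44.77%. The 4428 covered starts were made up of 1430 with H3K4me3 (32.29%) and 2998 without. At 10 kb after the start 27.62% of the former and 50.87% of the latter lay in a peak, against 74.76% and 75.88% at 1 kb. The median share of the gene body covered was 20.72% with H3K4me3 and 67.59% without. Wnt1 and Foxa1 had both marks at the start, and Barhl2, Hoxd13 and Lalba had H3K27me3 without H3K4me3. H3K27ac lay within 1 kb of a start in 13.26% of the 4428 genes.

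CpG content at covered starts depended on the other marks. Every start is counted here, also where a gene has several. The ratio of observed to expected CpG in the 300 bases had a median of 0.394 at 5148 starts with H3K27me3 and 0.651 at 14937 without. Among starts with neither H3K4me3 nor H3K27ac the order was the other way round, 0.263 at 3541 starts with H3K27me3 and 0.185 at 4217 without. In that set the share with H3K27me3 was 38.4% of 3666 starts with a ratio under 0.2 and 86.4% of 81 with a ratio of 1.0 or more, and over all starts it was 34.1% and 10.6%. Starts with H3K4me3 and no H3K27me3 had a median of 0.795 and starts with both of these marks 0.708, not sorted by H3K27ac. By class the median was 0.745 in homeobox factors, 0.626 in Hox genes, 0.152 in cytochrome P450 genes and 0.106 in odorant receptors, and 93% and 91.7% of the starts in the former pair and 61.4% and 32.2% in the latter had H3K27me3. Housekeeping genes had a median of 0.906 and no such start.

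**Figure D4:**
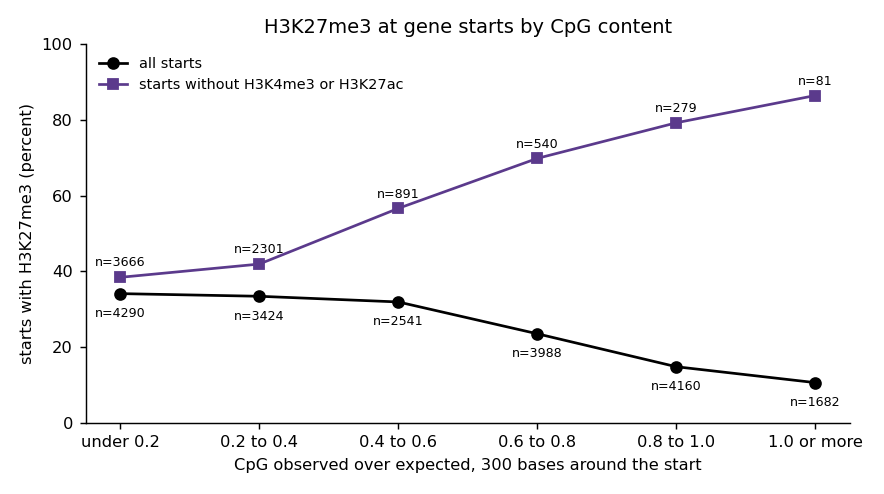
Percent of gene starts with an H3K27me3 peak within 1 kb, by the ratio of observed to expected CpG in the 300 bases around the start. Over all starts it runs from 34.1% down to 10.6%, and among starts without H3K4me3 or H3K27ac from 38.4% up to 86.4%; n is the number of starts.

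Along the chromosomes coverage was uneven at the scale of 1 Mb. Over 2392 windows of 1 Mb the median coverage was 9.042% (quartiles 1.462 and 22.2, SD 15.16), with 172 windows at 0 and a highest value of 81.81%. The 10% of windows with the highest coverage held 33.91% of covered base pairs, and 17.02% of windows held 50%. With the stricter peaks the top 10% held 51.95%. Coverage in a window correlated with that of the next at r = 0.426 over 2373 pairs, with the window 5 Mb away at 0.178 and with that 10 Mb away at 0.0773. Of 238 top windows with a next window, 66 (27.73%) were followed by another.

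Coverage was lowest in windows with few genes. The 270 windows without a protein-coding gene had a median coverage of 0.2532%, those with 1 to 4 genes 4.309%, with 5 to 9 genes 11.39%, with 10 to 19 genes 18.05% (quartiles 8.351 and 28.9), with 20 to 39 genes 16.93% (quartiles 8.499 and 29.34) and with 40 or more 16.49% (quartiles 9.648 and 28.63), so the last 3 classes overlapped almost wholly. Median H3K27ac was 0.3319% in windows without a gene, 6.633% with 10 to 19 genes and 11.6% with 40 or more. Over all windows Spearman's rho of coverage was 0.486 with the gene count and 0.313 with H3K27ac coverage (Pearson 0.273 and 0.136), a description of windows that share sequence composition and mapping.

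The highest window, at 81.81% (chromosome 15, 26085222 to 27085221), held Fbxl7 and Marchf11, genes of ubiquitin ligases, and that at 80.24% on chromosome 1 held Cacna1e and Zfp648. Among windows with 5 or more genes the highest was 68.68% (chromosome 5, 37005143 to 38005142), with Jakmip1, the homeobox gene Msx1 and Crmp1 and 6 of 8 genes covered. The window of Adra2c, Cpz and Hmx1 reached 67.03%, that of the coagulation genes F10 and F7 with Sox1 66.62%, and that of the HoxD cluster with Evx2 66.03%, with 10 of 12 genes covered. Of 1337 windows with 5 or more genes 23 had no covered base pair. One of them on chromosome 10 (99107447 to 100107446), with Kitl, the ligand of Kit, and the phosphatase gene Dusp6, had 13.39% in H3K27ac. Another held Dcn, Lum, Kera and Epyc, the small proteoglycan genes, with 4.929%.

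Stretches without a peak of 1 Mb or more numbered 213 and made up 15.72% of the span. The longest, 6.486 Mb on chromosome 14 (105188561 to 111674187) between Rbm26 and Slitrk5, held 5 protein-coding genes and 75 H3K27ac peaks. That on chromosome 4 between Gpr63 and Map3k7 measured 6.109 Mb. One of 4.547 Mb on chromosome 13 between Nrsn1 and Mboat1 held 27 genes with 116 H3K27ac peaks, and one of 4.424 Mb on chromosome 10 after Nudt4 held 14 genes with 185. One of 4.228 Mb on chromosome 14 between Olfm4 and Pcdh17 held 0 protein-coding genes and 16 H3K27ac peaks. The autosomes held 60205 H3K27ac peaks over 2402.6 Mb. Stretches without an H3K27me3 peak thus differed widely in their number of H3K27ac peaks.

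Whole chromosomes differed in coverage. Chromosome 19 was covered over 24.72%, chromosome 6 over 20.98% and chromosome 5 over 19.53%, and chromosomes 18, 12 and 3 over 7.918%, 8.141% and 8.15%. Chromosome 6 held 33 and chromosome 5 held 23 of the 239 top windows, and chromosomes 16 and 18 held 2 each. Over the 19 autosomes the Pearson correlation of coverage was 0.605 with genes per Mb and 0.678 with H3K27ac coverage, a description only. The median fold ranged from 1.717 on chromosome 3 to 1.771 on chromosome 19. The number of copies of each chromosome in this line was not measured here, and its part in these values was not tested.

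Covered genes lay next to each other. Of the genes that follow a covered gene on the chromosome 43.79% were covered, and of those that follow another gene 10.03%. Leaving out pairs that share a peak the shares were 35.55% and 9.541%. The share was lower at greater distance, 32.53% for gene 2, 24.13% for gene 5, 20.33% for gene 10 and 18.42% for gene 20 after a covered gene, against 15.1% for all genes. The 3128 covered genes formed 1759 runs, of which 1109 were single genes and 85 were runs of 5 or more with 600 genes.

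The 5 longest runs of covered genes held 13 to 28 genes. On chromosome 11, 28 genes in a row from Lypd8 to Olfr311 (58379032 to 58842042) were covered, 25 of them also with the stricter peaks, and 87.76% of the interval lay in peaks. A run of 17 from Gm9736 to Trpm2 on chromosome 10 followed, and 16 genes from Efcab8 to Bpifb9b on chromosome 2, the cluster of secreted BPI fold proteins. Then came 15 odorant receptor genes from Olfr557 to Olfr574 on chromosome 7, of which 2 were covered with the stricter peaks, and 13 genes from Olfr452 to Olfr434 on chromosome 6. The 4 longest runs of spared genes held 170 genes, from Olfr1012 to Olfr1232 on chromosome 2 over 3.567 Mb, 84 from Vmn1r240 to Gm6902 on chromosome 7, 48 from Gm10340 to Gm3411 on chromosome 14, and 47 from Krtap14 to Krtap7-1 on chromosome 16. In these 4 runs none of the genes with a start in the table had H3K27ac there. Runs of 45 spared genes came next, from Olfr780 to Olfr827 on chromosome 10 and from Nol10 to Taf1b on chromosome 12. H3K27ac stood at the start of 0 of 36 genes in the former and of 10 of 39 in the latter. Both Olfr311 and Olfr1012 have starts with few or no CG, as printed above, and they lay in runs of opposite kind.

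**Figure D5:**
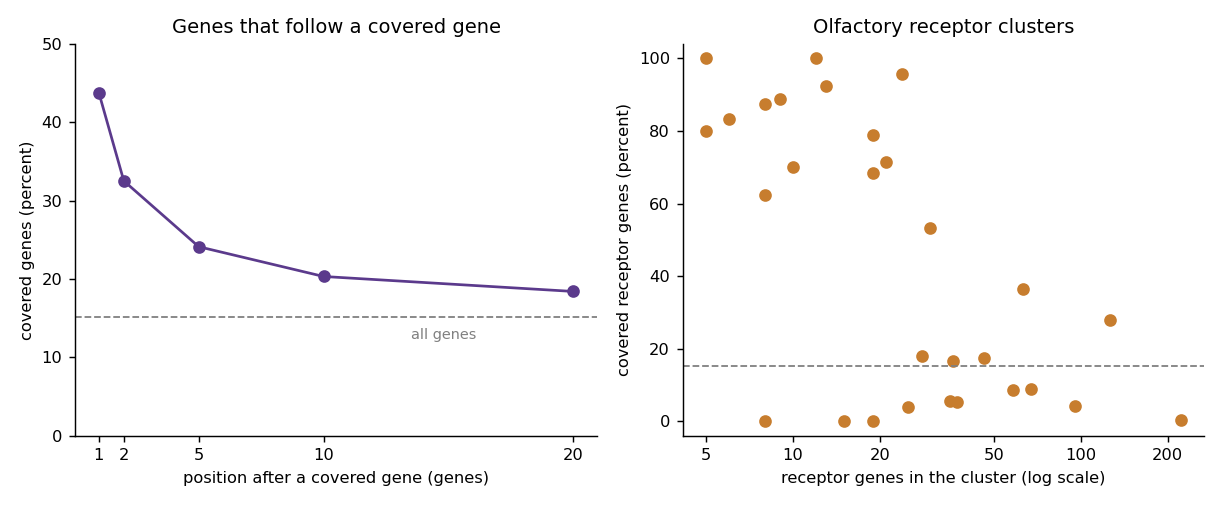
Left, percent of genes covered 1, 2, 5, 10 and 20 positions after a covered gene, from 43.79% to 18.42%, with the 15.1% of all genes as a dashed line. Right, percent of covered genes in each of the 29 odorant receptor clusters against the number of receptor genes in the cluster (log scale); clusters under 20 genes mostly lie above 50% and larger ones mostly below.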

How the data were processed

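H3K27me3 was measured by ChIP-seq in 4 samples, beside 4 input samples, and 1 broad peak list was deposited for the group. The aligner, the peak caller and how replicates were combined were not given in the sources used here. Per the submitters' processing notes, the build was mm10 and SAMtools was among the tools. The authors' fold per peak is a ratio of ChIP to background. The deposited −log10 q values are per peak and were used as given. The deposited score equals 10 times −log10 q as a whole number, except in 5 of 114660 peaks, and was not used further. Columns of other samples numbered 0.

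Peaks were intersected with RefSeq genes of GRCm38.p6, the assembly on which mm10 is based. A gene was covered when peaks took up at least 50% of its body, and a start when a peak lay within 1 kb. Starts were counted once per gene, by any of its starts, except in the CG and CpG values, where each start counted. Peaks were joined across gaps of up to 3 kb and summed over windows of 1 Mb. The members and gene lists were chosen with earlier results of these data known. In each class up to 4 genes with the highest and up to 3 with the lowest coverage were named, and any gene of classes of up to 20 genes. Over all genes, those with the most covered base pairs, the highest fold, and at the ends of runs, windows, domains and peak-free stretches were named. Other genes and the miRNAs were chosen after their values were seen. Alternatives were peaks of −log10 q of 5 or more, peaks above the median fold, and other gene, start, join and window sizes. Because 1 list represents the 4 samples, no test between samples was made. Wilson 95% intervals cover counting of genes only, and read depth is unknown. The functions were tested on simulated data. Python 3.11.15, numpy 2.4.6, pandas 2.3.3, scipy 1.17.1 and matplotlib 3.10.9 were used.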

Additional observations from a re-analysis of the deposited data

Results flagged for a closer look

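The H3K27me3 list also held 16613 peaks on chromosome X, which enter none of the autosomal values. They covered 24.48% of 167.6 Mb at 99.12 peaks per Mb, and 288 of 966 protein-coding genes (29.81%) had at least 50% of the body covered. The median fold was 1.714 and 2.462% of these peaks reached a −log10 q of 5. H3K27ac covered 1.099% of the chromosome. The number of X chromosomes in the line was not measured here, and its part in these values was not tested.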

How the results depend on the processing

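Counting only the peaks that reached −log10 q of 5, autosomal coverage was 5.972%, 1805 genes were covered and 2494 genes had a covered start. The 50% point of joined domains was then 38.01 kb, and the top 10% of windows held 51.95%. Of genes after a covered gene 36.25% were then covered. With peaks above the median fold, coverage was 11.81% and the top windows held 37.54%. Unjoined peaks gave a 50% point of 8.537 kb and joins of up to 10 kb gave 112.2 kb. The top windows held 44.95% at 250 kb and 27.03% at 3 Mb. At 75% of the body 2027 genes were covered. The share after a covered gene was 47.36% at 25% of the body, 39.26% at 75% and 35.55% without shared peaks. The difference in median CpG ratio between starts with and without H3K27me3, -0.257, was -0.0782 with the stricter peaks and had the opposite sign, 0.0779, at starts without H3K4me3 or H3K27ac. The count of 17 classes was 14 with the stricter peaks, 18 with the fold limit, which adds orphan receptors, and 14 with genes of 5 kb or more, which are 13 of the 17 and olfactory receptors. The cause of these shifts was not tested, beyond the fewer peaks or genes that each setting keeps. No paired analysis was possible because the peak list carries no column per replicate, and for the same reason no replicate could be left out. Without read depth, weak peaks cannot be told apart from background by counts.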

Other observations

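The peaks with the highest deposited −log10 q were not those with the highest fold. The first, 1.51 kb on chromosome 2 (98666147 to 98667656), had a −log10 q of 1964.9 and a fold of 1.048, and 79.34% of it lay in H3K27ac and 81.79% in H3K4me3 peaks. The next 4, on chromosomes 9 and 14, had folds between 1.25 and 2.256 and lay wholly in peaks of both other marks. These 5 peaks touched no protein-coding gene. Their source was not tested.

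Outside protein-coding genes, pseudogenes were covered in 1356 of 8884 cases (15.26%), and 78.49% of them had no covered base pair, against 60.48% of long non-coding RNA genes. Among classes not described above, solute carrier genes were covered in 71 of 360 cases (19.72%), interleukins and their receptors in 12 of 78 (15.38%), chemokines and their receptors in 8 of 53 (15.09%), and semaphorins, ephrins and Eph receptors in 6 of 41 (14.63%), all near the 15.1% of all genes. Defensin genes were covered in 19 of 71 cases (26.76%) and in 14.08% with the stricter peaks.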
